A study of Chlamydomonas reinhardtii with 28 samples.

Results

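The peaks described here are those of trimethylated lysine 9 of histone H3 (H3K9me3) in dnmt1 cells, set against wild type (WT) cells, of the green alga Chlamydomonas reinhardtii. They were taken from the 4 H3K9me3 ChIP-seq libraries whose titles name dnmt1 or WT, and they number 49134 of the 152930 peaks in the 18 peak lists of the series. The series holds 28 samples, of which 10 are input libraries that were not analysed here. The 4 groups were dnmt1 and WT cells of CC-5155, the plus mating type strain (mt+), followed by dnmt1 and WT cells of CC-5325, the minus mating type strain (mt-). All cells were at the vegetative stage, and each group was 1 library. In dnmt1 cells the gene DNMT1, which encodes a DNA methyltransferase, is knocked out. The labels do not say whether the knockout of each strain is a single clone, and a peak list cannot show the state of the deleted gene.

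DNMT1 enzymes are known to copy cytosine methylation onto the new DNA strand after replication. In many animals and fungi H3K9me3 marks silent repeats, centromeres and chromosome ends. In Chlamydomonas the monomethylated form, H3K9me1, is the better known mark of silenced sequence. H3K4me3 marks the start of active genes in most eukaryotes. The comparison asks where the H3K9me3 lists change when DNMT1 is missing, within each strain and then between the strains.

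The dnmt1 mt+ list held 12211 peaks over 8.65 Mb and the WT mt+ list 12026 peaks over 8.30 Mb. The dnmt1 mt- list held 12467 peaks over 8.89 Mb and the WT mt- list 12430 peaks over 8.91 Mb. Median widths lay between 629 and 656 bp in the 4 lists. Peaks of at least 2 kb numbered 45 in dnmt1 mt+ against 31 in WT mt+, and 51 in dnmt1 mt- against 25 in WT mt-. Total reads are not in the peak lists. The depth behind a call was recovered from the authors' fold and p-values as the local background expected in the ChIP library. Its 1st percentile was 32.2 fragments in dnmt1 mt+ against 20.8 in WT mt+, and 23.9 fragments in dnmt1 mt- against 26.97 in WT mt-. The dnmt1 library was the deeper of the pair in mt+ and the shallower in mt-.

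The antibody was sold for H3K9me3, and its peaks lay almost entirely at H3K4me3 peaks of the same strain and genotype. The share was 98.3% in dnmt1 mt+ against 99.6% in WT mt+, and 97.8% in dnmt1 mt- against 99.7% in WT mt-. Peaks at an H3K9me1 peak made up 1.60% in dnmt1 mt+ against 2.27% in WT mt+, and 1.98% in dnmt1 mt- against 2.37% in WT mt-. The cause of the overlap with H3K4me3 was not tested. It means that nearly every kept peak below is also a place of H3K4me3, and peaks without H3K4me3 are counted apart where they matter.

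Most H3K9me3 peaks were present in both genotypes. A peak is called kept when it shares at least 1 bp with a peak of the other genotype in the same strain. Of the WT peaks, 94.9% (95% Wilson interval 94.5 to 95.3) were kept in dnmt1 mt+ and 94.0% (93.6 to 94.4) in dnmt1 mt-. The dnmt1 mt+ list held 850 gained peaks without a WT partner, or 6.96% of the list, and the dnmt1 mt- list held 777, or 6.23%. WT peaks without a dnmt1 partner, called lost, numbered 611 in mt+ (5.08%) and 740 in mt- (5.95%). The gained peaks covered 384 kb in dnmt1 mt+, against 210 kb of lost peaks in WT mt+. In mt- the gained peaks covered 412 kb in dnmt1 and the lost peaks 276 kb in WT. In these totals, the turnover between genotypes was about as large as that between strains of 1 genotype. Peaks found in 1 strain only made up 4.90% of the dnmt1 mt+ list and 6.84% of the dnmt1 mt- list, and 3.30% of the WT mt+ list and 6.69% of the WT mt- list. With 1 library per group there is no replicate error. No test between genotypes was made, since an exact sign-flip test over the 2 strains as pairs could not go below p = 0.5, and intervals cover counting error only.

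Changed peaks were mostly narrow and weak. Gained peaks had a median width of 371 bp in dnmt1 mt+ and 387 bp in dnmt1 mt-, against 664 and 662 bp for the kept peaks of the same lists. Their median fold over background, as given by the authors, was 2.08 in dnmt1 mt+ and 2.10 in dnmt1 mt-, against 3.37 and 3.40 for kept peaks. Ranked by q-value within their own list, 86.7% of gained peaks in dnmt1 mt+ and 82.6% in dnmt1 mt- were among the weakest 25% of peaks. Lost peaks were narrower still, with median widths of 326 bp in WT mt+ and 346.5 bp in WT mt-, and 92.3% and 92.0% of them were among the weakest 25% of their lists. Against a calling limit of 2 on the −log10 scale of q, the median −log10 q was 6.48 for gained peaks in dnmt1 mt+ and 7.19 in dnmt1 mt-, and 7.295 for lost peaks in WT mt+ and 7.73 in WT mt-.

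Gained peaks took a larger share of the list at chromosome ends than anywhere else examined. A chromosome end was taken as the outermost 50 kb of a chromosome, which gives 34 ends on 17 chromosomes. Ends held 1.09% of the WT mt+ list and 0.925% of the WT mt- list, but 17.9% of all gained peaks in mt+ and 18.4% in mt-. The dnmt1 mt+ list had 255 peaks at ends and the WT mt+ list 131. The dnmt1 mt- list had 239 and the WT mt- list 115. Of these dnmt1 peaks, 152 were gained in mt+ (59.6%, 53.5 to 65.4) and 143 in mt- (59.8%, 53.5 to 65.8), while 25 and 16 WT peaks were lost there. H3K9me3 length at ends was 173 kb in dnmt1 mt+ against 76.7 kb in WT mt+, a ratio of 2.26. In mt- it was 212 kb in dnmt1 and 82.3 kb in WT, a ratio of 2.58. The ratio depends on the window, with 4.30 in mt+ and 7.23 in mt- for ends of 20 kb, and 1.44 and 1.52 for ends of 100 kb. The dnmt1 library was the deeper of the pair in mt+ and the shallower in mt-, and the part of depth in the excess was not tested.

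Interiors, meaning chromosomes without their ends, showed no such excess over all their peaks. They held 671 gained peaks in dnmt1 mt+, or 5.67% of the interior peaks (5.26 to 6.10), and 574 lost peaks in WT mt+, or 4.87% (4.49 to 5.27). In mt- the order turned round, with 569 gained peaks in dnmt1, or 4.71% (4.34 to 5.10), and 706 lost peaks in WT, or 5.78% (5.38 to 6.21). Interior length was 8405 kb in dnmt1 mt+ against 8171 kb in WT mt+, a ratio of 1.03, and 8604 kb in dnmt1 mt- against 8767 kb in WT mt-, a ratio of 0.981. For the few interior peaks away from H3K4me3, a set chosen after the data were seen, the direction in mt- was the other way. They covered 17.8 kb in dnmt1 mt+ against 5.73 kb in WT mt+, a ratio of 3.10, and 46.8 kb in dnmt1 mt- against 11.5 kb in WT mt-, a ratio of 4.06. Of the 46.8 kb, 24.5 kb in 34 peaks came from 1 stretch of chromosome 13, described below. In dnmt1 mt+ that stretch gave 1.98 kb, and the ratios without it were not computed. In each strain the deeper library of the pair had the more unmatched interior peaks, and the part of depth in this was not tested. Contigs, the unplaced pieces of the assembly, lay between ends and interiors. Gained peaks numbered 27 of 99 on contigs in dnmt1 mt+ (27.3%, 19.5 to 36.8) and 65 of 138 in dnmt1 mt- (47.1%, 39.0 to 55.4), while lost peaks numbered 9 of 82 in WT mt+ and 18 of 92 in WT mt-. The recovered background under the 65 gained peaks of dnmt1 mt- had a median of 150, against 30.2 under the 27 of dnmt1 mt+. Contigs 37 and 27 held 17 and 15 of the 138 peaks. The part of background in these calls was not tested.

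**Figure D1:**
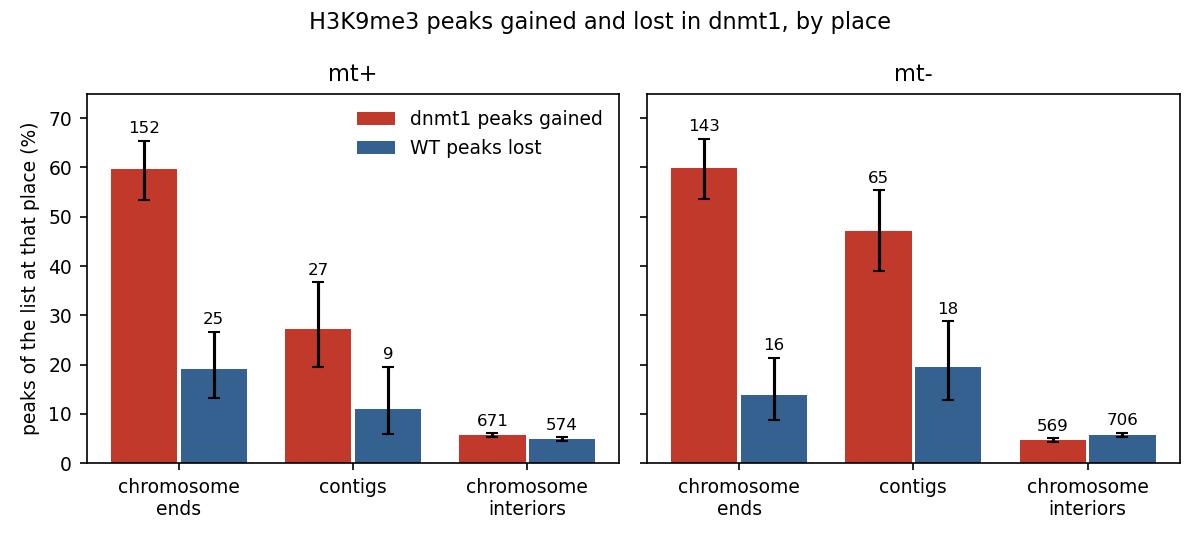
Share of dnmt1 peaks gained (red) and of WT peaks lost (blue) at each place, in percent of the peaks of that list at that place, for mt+ (left) and mt- (right). Bars carry Wilson 95% intervals and the number of changed peaks. At ends, gained shares reach 59.6% and 59.8%, while in interiors all 4 shares lie between 4.71% and 5.78%.

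The excess lay near the tips. Gained end peaks had a median distance of 11.3 kb from the end in dnmt1 mt+ and 10.2 kb in dnmt1 mt-, and 116 of 152 and 122 of 143 lay within 20 kb. Kept end peaks of the same lists lay at a median of 31.3 kb in mt+ and 33.5 kb in mt-. In the first 5 kb H3K9me3 covered 15.8% of the sequence in dnmt1 mt+ against 4.79% in WT mt+, and 20.4% in dnmt1 mt- against 3.45% in WT mt-. From 10 to 15 kb it covered 14.0% in dnmt1 mt+ against 1.89% in WT mt+, and 20.2% in dnmt1 mt- against 1.68% in WT mt-. The WT lists thus had a trough beside the tips that the dnmt1 lists lacked. From 45 to 50 kb the values were 6.92% in dnmt1 mt+ against 5.66% in WT mt+, and 5.78% in dnmt1 mt- against 7.39% in WT mt-, and beyond that distance the genotypes stayed close.

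**Figure D2:**
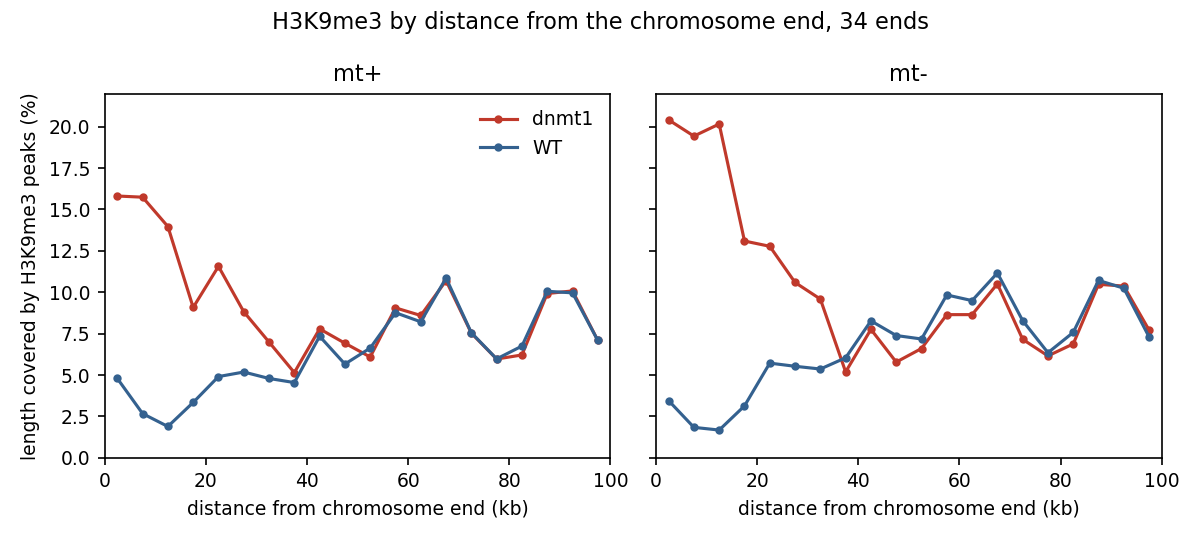
Percent of sequence covered by H3K9me3 peaks in bins of 5 kb against the distance from the chromosome end in kb, summed over 34 ends, for dnmt1 (red) and WT (blue) in mt+ (left) and mt- (right). The dnmt1 lines start at 15.8% and 20.4% and the WT lines at 4.79% and 3.45%. The dnmt1 line first lies below the WT line in the bin from 50 to 55 kb in mt+ and from 35 to 40 kb in mt-.

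Most gained end peaks lay at H3K9me1 and away from H3K4me3, unlike the list as a whole. In dnmt1 mt+, 137 of the 152 lay at an H3K9me1 peak of the same cells and 12 at an H3K4me3 peak. In dnmt1 mt-, 132 of the 143 lay at H3K9me1 and 5 at H3K4me3. For kept peaks at ends the picture was the opposite, with 14 of 103 at H3K9me1 and 89 at H3K4me3 in dnmt1 mt+, and 7 of 96 at H3K9me1 and 89 at H3K4me3 in dnmt1 mt-. Most of this H3K9me1 was there in WT cells too, since 141 of the 152 sites in mt+ and 130 of the 143 in mt- overlapped a WT H3K9me1 peak. Most were thus places that had H3K9me1 in WT and dnmt1 and an H3K9me3 peak in dnmt1 alone. Other changed peaks lay at H3K9me1 too. On contigs these were 13 of 27 gained peaks in dnmt1 mt+ and 39 of 65 in dnmt1 mt-, with 14 and 10 at H3K4me3. Among lost end peaks 21 of 25 in mt+ lay at H3K9me1 of dnmt1 and 4 at its H3K4me3, while in mt- 1 of 16 lay at H3K9me1 and 13 at H3K4me3. Seen from the other mark, H3K9me3 overlay 26.3% of the H3K9me1 length at ends in dnmt1 mt+ against 2.30% in WT mt+, and 36.0% in dnmt1 mt- against 1.33% in WT mt-. In interiors the same share was 1.97% in dnmt1 mt+ against 0.9502% in WT mt+, and 2.75% in dnmt1 mt- against 0.938% in WT mt-. In dnmt1 mt-, 1 stretch of chromosome 13, described below, held 34 H3K9me3 peaks over 24.5 kb, 33 of them at H3K9me1. The interior share without this stretch was not computed. The interior H3K9me1 length itself was 468 kb in dnmt1 mt+ against 6528 kb in WT mt+, and 1272 kb in dnmt1 mt- against 6920 kb in WT mt-. The length with both marks was therefore shorter in interiors of dnmt1, with 9.23 kb in dnmt1 mt+ against 62.0 kb in WT mt+, and 34.99 kb in dnmt1 mt- against 64.9 kb in WT mt-.

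Gained end peaks were weak, and wider than gained interior peaks but narrower than kept end peaks. They had a median width of 502 bp in dnmt1 mt+ and 603 bp in dnmt1 mt-. Gained interior peaks had 359 and 368 bp, and kept end peaks 664 and 675 bp. The median folds of gained end peaks were 1.89 in dnmt1 mt+ and 1.95 in dnmt1 mt-. By q-value, 150 of the 152 in dnmt1 mt+ and 127 of the 143 in dnmt1 mt- were among the weakest 25% of their lists. The recovered background under them, as a pileup on the scale of the peak caller, had a median of 36.5 in dnmt1 mt+ and 34.9 in dnmt1 mt-, close to the 31.5 and 30.5 of interior peaks of the same lists. Over the whole genome, H3K9me3 peaks without H3K4me3 numbered 206 in dnmt1 mt+ against 53 in WT mt+, and 278 in dnmt1 mt- against 33 in WT mt-. Of these, 154 lay at ends in dnmt1 mt+ against 38 in WT mt+, and 145 in dnmt1 mt- against 14 in WT mt-. Their length at ends was 106 kb in dnmt1 mt+ against 15.4 kb in WT mt+, and 147 kb in dnmt1 mt- against 10.1 kb in WT mt-.

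Not all ends took part. At 21 of the 34 ends both dnmt1 lists covered more than both WT lists, at 2 ends both covered less, and 1 end had no H3K9me3 peak in any list. The 6 ends with the largest mean difference accounted for 70.5% of the mean excess over all ends. They gave 64.4 of the 96.4 kb by which dnmt1 exceeded WT in mt+, and 95.04 of the 130 kb in mt-. Without these 6, chosen on the same values, the ratio of dnmt1 to WT at ends was 1.48 in mt+ and 1.49 in mt-.

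The left end of chromosome 17 had the largest difference. H3K9me3 covered 16.3 kb of its 50 kb in dnmt1 mt+ against 0.358 kb in WT mt+, and 27.3 kb in dnmt1 mt- against 0.747 kb in WT mt-. The dnmt1 mt+ list had 24 peaks there and the WT mt+ list 1, and the dnmt1 mt- list had 18 and the WT mt- list 2. Of the dnmt1 peaks, 23 in mt+ and 17 in mt- lay away from H3K4me3. H3K9me1 was broad in all 4 libraries at this end, with 30.3 kb in dnmt1 mt+ against 34.4 kb in WT mt+, and 32.1 kb in dnmt1 mt- against 33.7 kb in WT mt-. The longest chain of gained peaks in mt+, with gaps of up to 10 kb, was here and counted 23 peaks from 1936 to 34626. In mt- 16 gained peaks filled the stretch from 1139 to 34449, among them the widest gained peak of the 2 strains, 5202 bp.

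Other ends also had more H3K9me3 in dnmt1, with smaller mean differences, but not all kept their H3K9me1 as fully. At the right end of chromosome 10 H3K9me1 covered 9.4 kb in dnmt1 mt+ against 23.0 kb in WT mt+. In mt- it covered 17.6 kb in dnmt1 against 22.1 kb in WT. At the right end of chromosome 16 it covered 16.9 kb in dnmt1 mt+ against 19.0 kb in WT mt+, and 17.2 against 17.7 kb in mt-. At the right end of chromosome 4 H3K9me3 covered 12.9 kb in dnmt1 mt+ against 2.98 kb in WT mt+, and 21.9 kb in dnmt1 mt- against 0.871 kb in WT mt-. At the right end of chromosome 16 it covered 16.4 kb in dnmt1 mt+ against 2.62 kb in WT mt+, and 16.3 kb in dnmt1 mt- against 3.55 kb in WT mt-. The right end of chromosome 10 had 10.6 kb in dnmt1 mt+ against 1.57 kb in WT mt+, and 19.0 kb in dnmt1 mt- against 2.73 kb in WT mt-. Both dnmt1 lists exceeded both WT lists at each of these ends. The right end of chromosome 7 had 9.09 kb in dnmt1 mt+ against no peak in WT mt+, and 9.10 kb in dnmt1 mt- against 0.721 kb in WT mt-. The left end of chromosome 5 had 9.70 kb in dnmt1 mt+ against 3.01 kb in WT mt+, and 12.1 kb in dnmt1 mt- against 2.05 kb in WT mt-.

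At the bottom of the order the differences were small or went opposite ways. The right end of chromosome 1 had 4.59 kb in dnmt1 mt+ against 4.78 kb in WT mt+, and 4.17 kb in dnmt1 mt- against 4.55 kb in WT mt-. The right end of chromosome 3 had 2.38 kb in dnmt1 mt+ against 1.85 kb in WT mt+, and 2.21 kb in dnmt1 mt- against 3.57 kb in WT mt-. The left end of chromosome 15 had 3.11 kb in dnmt1 mt+ against 1.69 kb in WT mt+, but 1.57 kb in dnmt1 mt- against 6.65 kb in WT mt-. The right end of chromosome 5, named after its values were seen, had the strongest disagreement between the strains. There H3K9me3 covered 0.653 kb in dnmt1 mt+ against 7.28 kb in WT mt+, but 9.91 kb in dnmt1 mt- against 1.65 kb in WT mt-. It held the longest chain of lost peaks, 17 WT mt+ peaks from 3669039 to 3681882, where dnmt1 mt- had 9 peaks. These WT mt+ peaks were weak, since the lost end peaks of WT mt+ had a median fold of 1.47, on a median background of 225 against 25.0 for interior peaks of that list. The part of that background in the calls was not tested.

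**Figure D3:**
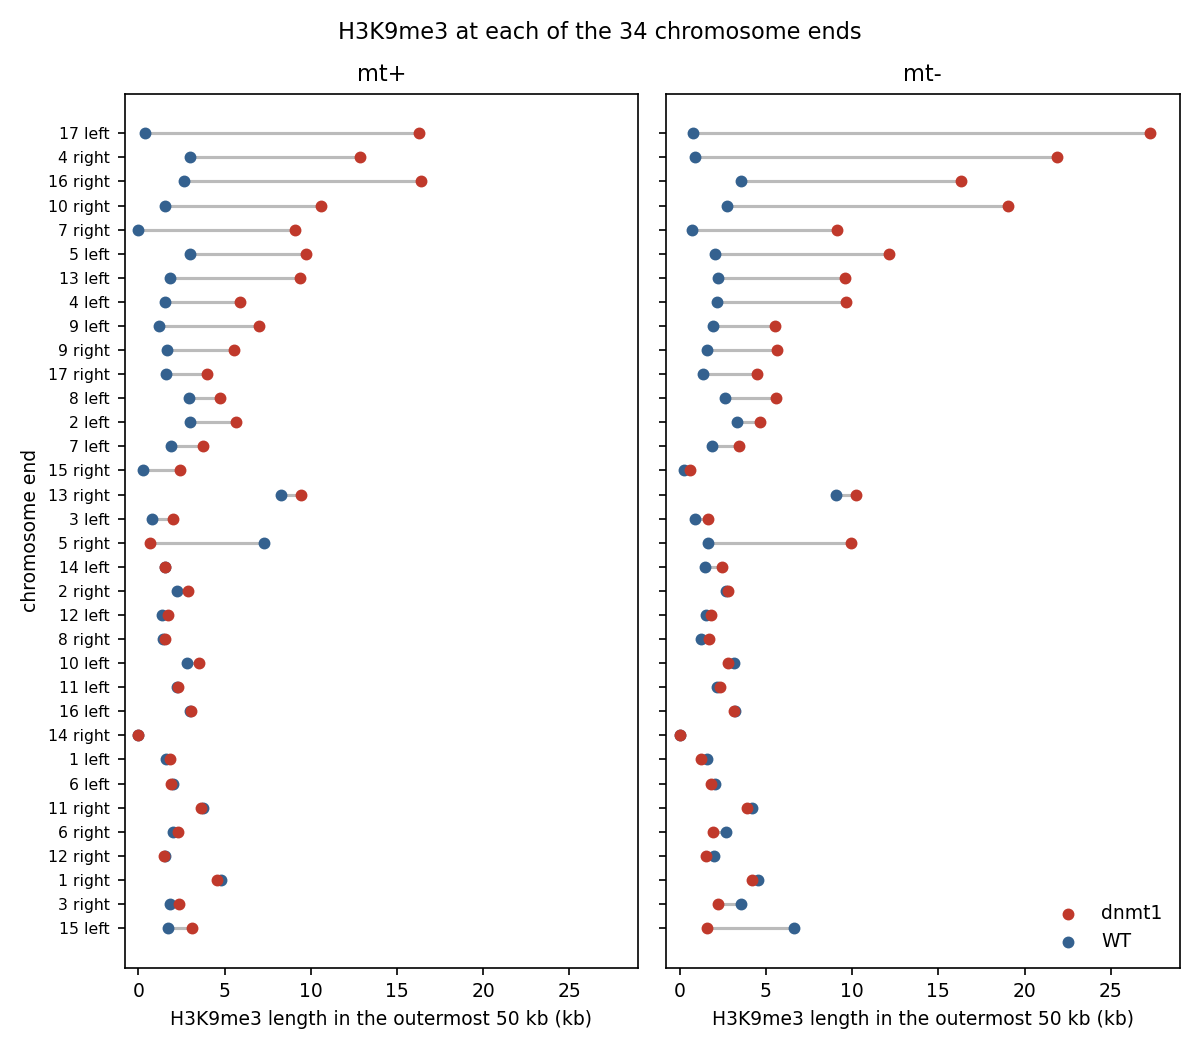
H3K9me3 length in kb in the outermost 50 kb of each of the 34 chromosome ends, in dnmt1 (red) and WT (blue), for mt+ (left) and mt- (right). Ends are ordered by the mean difference over the strains. The left end of chromosome 17 is at the top with 16.3 and 27.3 kb in dnmt1, and the right end of chromosome 5 has its red point left of the blue in mt+ and right of it in mt-.

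Ends with H3K9me1 in dnmt1 differed in how much H3K9me3 they had. At 7 ends H3K9me3 exceeded WT by at least 5 kb in both strains, and there dnmt1 cells had 68.7% of the WT H3K9me1 length in mt+ and 81.9% in mt-. Over the other 27 ends, grouped after their values were seen, they had 61.7% in mt+ and 56.0% in mt-. The 250 kb of dnmt1 mt+ H3K9me1 behind the 61.7% include 2 ends with no H3K9me1 peak in WT. These are the right ends of chromosomes 14 and 8, with 31.9 and 17.5 kb in dnmt1 mt+. The share without them was not computed. H3K9me3 length in dnmt1 was 6.81 times that of WT at the 7 ends in mt+ and 8.96 times in mt-, which is how they were chosen, and 1.38 and 1.39 times at the other ends. Some ends with much H3K9me1 had little H3K9me3. The right end of chromosome 14 had its 31.9 kb of H3K9me1 in dnmt1 mt+ alone, and no H3K9me3 peak in any list. The left end of chromosome 3, named after its values were seen, had 15.9 kb of H3K9me1 in dnmt1 mt+ against 35.8 kb in WT mt+, with 1.99 kb of H3K9me3 in dnmt1 mt+ against 0.806 kb in WT mt+.

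On contigs the excess was uneven between strains. Contig 37, the most changed, had 11.2 kb of H3K9me3 in dnmt1 mt- against no peak in WT mt-, and none in either genotype of mt+. Contig 27 had 0.580 kb in dnmt1 mt+ against 0.545 kb in WT mt+, and 6.36 kb in dnmt1 mt- against 0.559 kb in WT mt-. On contigs 37 and 27 the recovered background under the dnmt1 mt- peaks was high, with medians of 166 and 217, against 30.5 for interior peaks of that list. Contigs 51 and 32 differed in both strains on an ordinary background. Contig 51 had 3.09 kb in dnmt1 mt+ against 0.263 kb in WT mt+, and 4.62 kb in dnmt1 mt- against no peak in WT mt-. Contig 32 had 3.26 kb in dnmt1 mt+ against 0.273 kb in WT mt+, and 2.31 kb in dnmt1 mt- against 0.287 kb in WT mt-. The medians of the background under the dnmt1 peaks of contigs 51 and 32 lay between 25.6 and 30.2. All contigs together had 60.0 kb in dnmt1 mt+ against 46.2 kb in WT mt+, a ratio of 1.30, and 75.4 kb in dnmt1 mt- against 54.1 kb in WT mt-, a ratio of 1.39.

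Gained peaks in interiors were mainly at H3K4me3, but less often than kept ones. Of kept interior peaks, 99.94% in dnmt1 mt+ and 99.92% in dnmt1 mt- lay at an H3K4me3 peak of the same cells. In dnmt1 mt+ 640 of the 671 (95.4%) lay at an H3K4me3 peak of the same cells, and 549 of the places had an H3K4me3 peak in WT as well. In dnmt1 mt- 501 of the 569 (88.0%) lay at H3K4me3 in dnmt1, and 426 of the places had it in WT. A smaller set lay where WT had H3K9me1. These were 135 in mt+ (20.1%) and 164 in mt- (28.8%), against 2.18% and 2.198% of kept peaks of all places. At most of them dnmt1 cells no longer had an H3K9me1 peak, with 106 of the 135 in mt+ and 103 of the 164 in mt-. At 96 and 98 of these, dnmt1 had an H3K4me3 peak. Kept interior peaks at WT H3K9me1 lacked an H3K9me1 peak in dnmt1 more often still, at 219 of 221 in mt+ and 234 of 238 in mt-. Gained interior peaks thus lay mostly at places without an H3K9me1 peak in dnmt1, and gained end peaks mostly at places with one. In both places, though, gained peaks lay at dnmt1 H3K9me1 more often than kept peaks. In interiors these were 4.32% of gained against 0.0179% of kept peaks in dnmt1 mt+, and 11.4% against 0.0347% in dnmt1 mt-. A single stretch of chromosome 13, described next, held 33 of these 65 gained peaks in dnmt1 mt- and 6 of the 29 in dnmt1 mt+.

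The clearest interior exception, named after its values were seen, was on chromosome 13, from 4369051 to 4416024. In dnmt1 mt- this stretch held 34 H3K9me3 peaks and in WT mt- none. In dnmt1 mt+ it held 6 peaks and in WT mt+ none. Of these, 33 in dnmt1 mt- and 6 in dnmt1 mt+ lay at H3K9me1, and none lay at H3K4me3, as at the ends. The folds were low, at 1.32 to 2.39 in dnmt1 mt- and 1.46 to 1.64 in dnmt1 mt+. The background under these peaks was not set apart, and its part in the calls was not tested. Chromosome 13 had the highest share of gained interior peaks, 8.23% in mt+ and 9.60% in mt-. Without the stretch the share was 7.26% in mt+ and 4.21% in mt-, and chromosome 15 then ranked above it with 7.52% in mt+ and 7.40% in mt-.

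Among whole chromosomes, gained shares were highest on chromosome 4 in mt+ (10.3%) and chromosome 13 in mt- (11.2%), and lowest on chromosome 11 in mt+ (4.26%) and chromosome 12 in mt- (3.46%). Lost shares were highest on chromosome 5 in mt+ (10.3%) and chromosome 15 in mt- (8.51%), and lowest on chromosome 3 in mt+ (3.32%) and chromosome 11 in mt- (4.23%). With ends left out, the lost share of chromosome 5 in mt+ was 6.06% and that of chromosome 15 in mt- 7.40%, and chromosome 8 was highest in both strains with 6.64% and 7.44%.

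Lost peaks were scattered. With gaps of up to 10 kb, gained peaks formed 18 chains of at least 5 peaks in mt+ and 20 in mt-, of which 13 in each strain were at ends. Lost peaks formed 2 such chains in mt+ and 3 in mt-. Of the lost interior peaks, 566 of 574 in WT mt+ and 700 of 706 in WT mt- lay at an H3K4me3 peak of WT, and 564 of them in mt+ and 692 in mt- lay at an H3K4me3 peak of dnmt1 as well. At these sites H3K9me3 dropped out of the list while H3K4me3 remained in it. The presence of H3K4me3 did not set lost peaks apart, since kept interior peaks had it slightly more often. Of the kept interior peaks of WT, 11213 of 11221 in mt+ and 11501 of 11513 in mt- lay at H3K4me3 of both genotypes. Among the lost interior peaks, 9 in mt+ (1.57%) and 18 in mt- (2.55%) lay at a WT H3K9me1 peak. The shares were close to the 1.91% and 2.14% of kept interior peaks of WT.

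Many changes were found in 1 strain alone. Gained in both strains means a dnmt1 peak in mt+ and in mt-, overlapping each other, with no WT peak of either strain. There were 269 such mt+ peaks, which is 55.9% of the 481 dnmt1 mt+ peaks absent from both WT lists. They met 255 dnmt1 mt- peaks, which is 43.1% of the 591 absent from both WT lists. At ends 90 of 140 mt+ peaks and 77 of 122 mt- peaks were shared, in interiors 169 of 321 and 169 of 408, and on contigs 10 of 20 and 9 of 61. Of the 90 at ends, 88 lay at H3K9me1 without H3K4me3 in dnmt1. Of the 169 in interiors, 153 lay at H3K4me3 in dnmt1, 79 at H3K4me3 in WT and 92 at H3K9me1 in WT. Peaks lost in both strains numbered 123, or 48.4% of the 254 WT mt+ peaks and 30.8% of the 400 WT mt- peaks absent from both dnmt1 lists. Of the 123, 122 lay at H3K4me3 in dnmt1, as did 99.8% of kept WT peaks in each strain. Over the 13474 sites formed by joining the 4 lists, 10930 (81.1%) had a peak in all of them. Sites with both dnmt1 libraries and neither WT library numbered 236, sites with both WT and neither dnmt1 library 123. The strains set apart 70 sites with both mt+ and neither mt- library and 178 with both mt- and neither mt+ library.

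Of the 12 widest peaks gained in both strains, ranked by the mean width of the 2 overlapping dnmt1 peaks, 11 were at ends. These 11 are not separate sites, since several narrower dnmt1 mt+ peaks met the same wide dnmt1 mt- peak. On chromosome 17, 4 peaks of dnmt1 mt+ between 24161 and 29695, from 293 to 1407 bp wide, met the single dnmt1 mt- peak of 5202 bp from 24436 to 29637. Beside them, the dnmt1 mt+ peaks from 20898 to 22669 and from 22822 to 24019 met a dnmt1 mt- peak of 2989 bp, and the one from 8777 to 9907 met a dnmt1 mt- peak of 2556 bp. On chromosome 16 the peak from 8032721 to 8036521 was 3801 bp wide in dnmt1 mt+ and its partner 1268 bp in dnmt1 mt-, and the peak from 8025767 to 8027962 was 2196 bp in dnmt1 mt+ and 2777 bp in dnmt1 mt-. On chromosome 7 a peak from 6486646 to 6488208 was 1563 bp in dnmt1 mt+ and 2312 bp in dnmt1 mt-. On chromosome 10 a peak from 6786322 to 6787869 was 1548 bp in dnmt1 mt+ and 1890 bp in dnmt1 mt-. All 11 had H3K9me1 in the 4 libraries and H3K4me3 in none, with folds between 1.84 and 2.59.

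The remaining 1 of the 12 was an interior peak on chromosome 1, from 1194614 to 1196910 in dnmt1 mt+. It was 2297 bp wide with a fold of 3.17 in dnmt1 mt+ and 2041 bp with a fold of 2.90 in dnmt1 mt-. H3K9me1 was present there in all 4 libraries, and H3K4me3 in both dnmt1 libraries and in neither WT library. It was the only 1 of the 12 that gained an H3K4me3 peak together with the H3K9me3 peak.

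The 12 widest peaks lost in both strains were smaller. The widest, on chromosome 13 from 4893971 to 4894896, was 926 bp in WT mt+ and 626 bp in WT mt-, with folds of 2.53 and 1.76. It had H3K9me1 and no H3K4me3 in all 4 libraries, and was the only 1 of the 12 of that kind. The other 11 had H3K4me3 and no H3K9me1 in all 4 libraries. Examples are the site on chromosome 3 from 8285493 to 8286044, 552 bp in WT mt+ and 788 bp in WT mt-, and the site on chromosome 8 from 2282701 to 2283147, 447 bp in WT mt+ and 477 bp in WT mt- with folds of 3.03 in both. Of the 12, 2 lay at chromosome ends, 27.3 kb from the right end of chromosome 5 and 44.6 kb from the left end of chromosome 9.

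Kept peaks had nearly the same width in both genotypes. Pairs of 1 dnmt1 peak and 1 WT peak numbered 11245 in mt+ and 11559 in mt-. The median log2 ratio of width, dnmt1 over WT, was 0.02 in mt+ (exact binomial 95% interval for the median 0.01 to 0.02) and -0.02 in mt- (-0.02 to -0.01). The quartiles were -0.11 and 0.15 in mt+, and -0.16 and 0.11 in mt-. The dnmt1 library was the deeper of the pair in mt+ and the shallower in mt-, so depth and strain cannot be told apart in these opposite signs. Between strains the medians were of the same size or larger, -0.02 for dnmt1 mt+ over dnmt1 mt- and -0.06 for WT mt+ over WT mt-. The intervals count pairs and hold no replicate error.

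**Figure D4:**
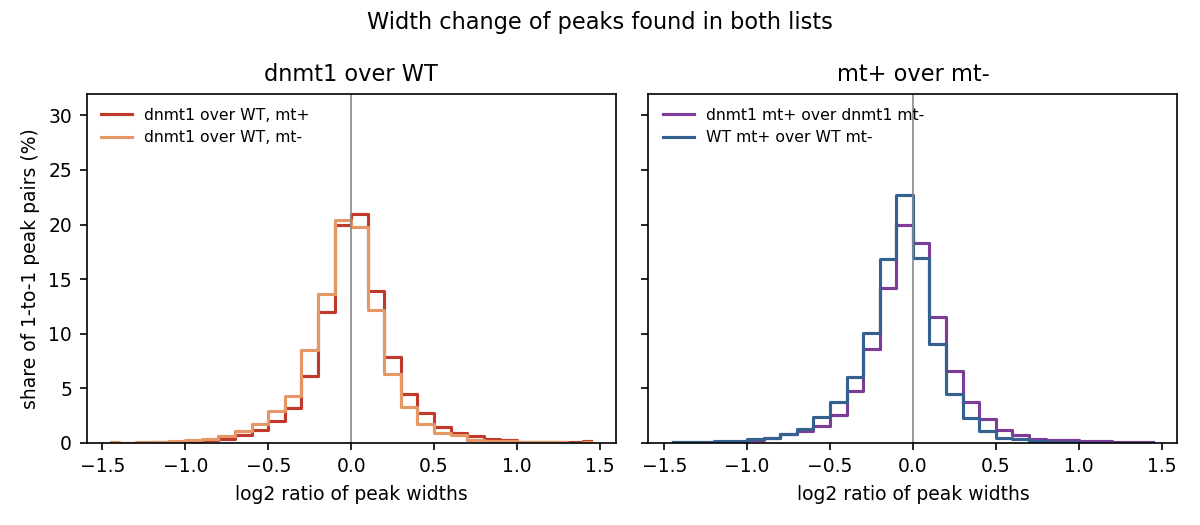
Share of 1-to-1 peak pairs in percent against the log2 ratio of their widths, for dnmt1 over WT in each strain (left) and mt+ over mt- in each genotype (right). All 4 distributions are centred within 0.07 of 0, and the genotype distributions are no further from 0 than the strain ones.

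Large changes of width were rare. In mt+ 322 pairs (2.86%) were at least 1.5-fold wider in dnmt1 and 193 (1.72%) at least 1.5-fold narrower, and in mt- 186 (1.61%) were wider and 342 (2.96%) narrower. Pairs at least 1.5-fold wider made up larger shares of the kept peaks at WT H3K9me1. Among 228 such pairs in mt+ 17.98% were at least 1.5-fold wider in dnmt1, and among 258 in mt- 9.30%. In mt- the same pairs had a median log2 ratio of -0.02, with 123 wider and 135 narrower, and 4.26% were at least 1.5-fold narrower. In mt+ their median was 0.09, with 149 wider and 78 narrower, and 1.75% were at least 1.5-fold narrower. The few pairs at an H3K9me1 peak of dnmt1, 13 in mt+ and 9 in mt-, had median log2 ratios of 0.98 in mt+ and 1.096 in mt-.

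The changes of width were mostly not shared between strains. At 10742 sites with exactly 1 peak in each of the 4 lists, 2572 (23.9%) were wider in dnmt1 in both strains, 2647 (24.6%) narrower in both and 5435 (50.6%) wider in 1 strain and narrower in the other. Across these sites the log2 ratios of the strains had a Pearson r of 0.02 and a Spearman rho of -0.01, as a description over sites that share the 4 libraries. Changes of at least 1.5-fold in both strains were found at 22 sites for wider and 21 for narrower. Of the 22 wider sites, 14 lay at H3K9me1 of WT mt+, and of the 21 narrower sites 0 did, where 238 (2.22%) of the 10742 sites lie there.

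The most widened sites were interior H3K4me3 sites beside H3K9me1 of WT. On chromosome 10 the peak from 3748572 to 3749874 was 1303 bp wide in dnmt1 mt+ against 314 bp in WT mt+, and 1267 bp in dnmt1 mt- against 300 bp in WT mt-. On chromosome 15 the peak from 2329606 to 2330812 was 1207 bp in dnmt1 mt+ against 357 bp in WT mt+, and 1130 bp in dnmt1 mt- against 444 bp in WT mt-. On chromosome 12 the peak from 6720994 to 6722327 was 1334 bp in dnmt1 mt+ against 448 bp in WT mt+, and 1235 bp in dnmt1 mt- against 516 bp in WT mt-. At each of these both dnmt1 widths were more than 2-fold the WT widths. Further sites lay on chromosome 14 from 2203447 to 2204851, with log2 ratios of 1.21 in mt+ and 1.12 in mt-, and on chromosome 17 from 6198768 to 6199443, with 1.06 and 1.25. A sixth, on chromosome 6 from 3620785 to 3621577, had 1.01 and 1.00. All 6 had H3K4me3 in the 4 libraries. The first 5 had H3K9me1 in both WT libraries and in neither dnmt1 library, and the sixth had none in any.

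The most narrowed sites had no H3K9me1 in any library and H3K4me3 in all. On chromosome 12 the peak from 9313056 to 9313339 was 284 bp in dnmt1 mt+ against 587 bp in WT mt+, and 376 bp in dnmt1 mt- against 745 bp in WT mt-. The other 5 lay on chromosomes 12, 14, 16 and 17, with log2 ratios between -0.96 and -0.70 in mt+ and between -0.90 and -0.70 in mt-. All 6 were interior.

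Peak length in the mating type region differed more between strains than between genotypes. On the sequence named mating_type_plus, 365 kb long, H3K9me3 covered 8.93 kb in dnmt1 mt+ against 10.6 kb in WT mt+, with 15 and 18 peaks. The mt- libraries had 4 peaks each there, covering 1.65 kb in dnmt1 mt- against 1.70 kb in WT mt-. The sequence is named for the plus mating type, and H3K4me3 length was lower in mt- too. H3K4me3 covered 22.6 kb in dnmt1 mt+ and 20.3 kb in WT mt+, against 3.65 kb in dnmt1 mt- and 3.46 kb in WT mt-. How much of this sequence mt- cells carry is not in the peak lists. The strain difference there can thus not be read as one of the mark. On mating_type_plus no dnmt1 peak was gained, and 3 WT mt+ peaks were lost. In the first 1 Mb of chromosome 6, H3K9me3 covered 64.2 kb in dnmt1 mt+ against 64.1 kb in WT mt+, and 77.7 kb in dnmt1 mt- against 80.7 kb in WT mt-. Over the same 1 Mb H3K9me1 covered 3.49 kb in dnmt1 mt+ against 36.4 kb in WT mt+, and 13.6 kb in dnmt1 mt- against 114 kb in WT mt-. H3K9me3 there was thus close to WT while H3K9me1 was far lower.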

How the data were processed

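The deposited narrow-peak lists were called by the authors on single ChIP libraries. The submitters' processing notes name MACS2 2.2.7.1, Bowtie2 2.4.2, Trim Galore 0.6.7, deepTools 3.5.1 and Picard, with no settings. As the build of the genome was not given in the sources used here, no genes are named and no sequence is shown. The authors deposited for each peak a display score, a fold over local background as a linear ratio, and −log10 p-values and q-values, with every q-value below 0.01. Positions are those of the files, counted from 1. Per the labels, 1 input served H3K9me3, H3K4me3 and H3K4me1 within each group, so these lists share their control.

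Lists were compared with Python 3.11.15, numpy 2.4.6, pandas 2.3.3 and scipy 1.17.1. Overlap needed 1 bp, and a place was set by the midpoint of a peak. Lengths were clipped to the 50 kb windows, and each sequence was taken to end at the farthest peak of any list. Depth was recovered from fold and p-value, because MACS2 takes fold as (pileup + 1) / (background + 1) and p from a Poisson distribution. It was solved for 100% of H3K9me3 peaks, and pileups were divided by the ChIP scale where given in fragments; backgrounds under peaks are scaled pileups. The overlap and depth functions were tested on simulated data. There was 1 library per group, so no p-value was computed, and Wilson 95% intervals cover counting error only. The regions named were the 12 widest gained and 12 widest lost in both strains, the 6 most widened and 6 most narrowed sites, the 6 ends with the largest mean difference and the 3 with the lowest, the 4 most changed contigs, the chromosomes with the highest and lowest shares, and the mating type region. Exceptions are marked. The peaks compared and these rules were chosen with earlier results of these data known.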

Additional observations from a re-analysis of the deposited data

Results flagged for a closer look

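In 4 cases the strains moved in opposite directions under the same comparison of dnmt1 with WT, and in none was the difference between strains tested. The median log2 width ratio of kept peaks was 0.0180 in mt+ and -0.0185 in mt-. Interior peaks gained minus lost came to 97 in mt+ and -137 in mt-. At the right end of chromosome 5, H3K9me3 length in dnmt1 minus WT was -6.62 kb in mt+ but 8.26 kb in mt-. At the left end of chromosome 15 the difference was 1.42 kb in mt+ but -5.08 kb in mt-.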

How the results depend on the processing

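No paired analysis was possible because each group has 1 library, so replicate numbers pair nothing, and the strains as 2 pairs could not reach an exact p below 0.5. Of 116 alternative values over 26 results, 80 stayed close to the reported value, 35 moved and 1 turned round. Close meant within 1.5-fold for counts and ratios, and within the 95% interval for shares and medians. In mt- gained peaks outnumbered lost peaks (777 against 740), but not with −log10 q of at least 5 in both lists (718 against 830). With lists of equal length they were 780 and 787, and with peaks joined over 500 bp 641 and 667. The contig ratio fell to 1.15 in mt+ and 1.20 in mt- with −log10 q of at least 5. The WT share kept was 94.9% in mt+ and 94.0% in mt-. It was 93.6% in mt- where 50% of a peak had to be covered, 92.8% in mt+ and 92.5% in mt- with reciprocal overlap, 94.0% and 93.2% with −log10 q of at least 5 in both lists, 95.7% and 94.9% with that limit on WT peaks alone, 94.3% and 93.5% with lists of equal length (12026 peaks), and 97.9% and 96.8% against both lists of the other genotype. Against both lists, gained peaks numbered 481 in mt+, and lost peaks 254 in mt+ and 400 in mt-. The dnmt1 over WT length ratio at ends was 4.30 in mt+ and 7.23 in mt- with ends of 20 kb, and 1.44 and 1.52 with ends of 100 kb. Peaks gained in both strains numbered 173 with −log10 q of at least 5. With H3K9me1 peaks joined over 5 kb, gained peaks at WT H3K9me1 came to 37.9% in mt+, those at dnmt1 H3K9me1 to 24.0% in mt+ and 39.4% in mt-, and lost peaks at WT H3K9me1 to 7.86% in mt+ and 6.89% in mt-. With −log10 q of at least 5 for the other mark, 26.8% of gained mt- peaks were at dnmt1 H3K9me1, 2.29% of lost mt+ peaks at WT H3K9me1 and 97.8% of lost mt- peaks at WT H3K4me3. With 50% of a peak covered, 1.76% of lost mt- peaks were at WT H3K9me1. Of the alternatives added after the data were seen, leaving out the 6 most changed ends gave ratios of 1.48 in mt+ and 1.49 in mt-. Among peaks away from H3K4me3 the ratios were 6.91 in mt+ and 14.5 in mt- at ends, 10.6 and 107 on contigs, where WT had 2 and 1 such peaks, and 3.10 and 4.06 in interiors. The interior ratio of 4.06 in mt- lay on the other side of 1 from the 0.981 of all interior peaks. The stretch of chromosome 13 gave 24.5 of the 46.8 kb of dnmt1 mt- behind that ratio. The causes of these shifts were not tested. Total reads are not in the peak lists, so the smallest change these depths could show is not known.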
